A study of Mus musculus with 9 samples.

Results

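Hk1, Hk2, Pfkl, Pfkp, Pfkfb3, Pgk1, Ldha, Pdk1, Bnip3 and Ndufa4l2 carry out or adjust the change from mitochondrial respiration to glycolysis that cells make when oxygen is short. These 10 genes were picked by symbol out of 48587 genes in the count table, and each of them was detected in every sample. The choice used no rule on measured values but was made with earlier results of these data known. RNA was sequenced from retinas of C57BL/6J mice aged 12 weeks. RVO eyes came from mice that received eosin Y, a photosensitizer, and had all large veins of that eye closed by laser. The fellow eyes of these mice got an equal number of laser sites between the large vessels and are called control laser-treated eyes, so that they carried eosin Y and laser damage too. Both kinds of eye were collected at d2 after laser, and untreated eyes came from mice without laser treatment. Each sample pooled 6 retinas of 6 mice, with 3 samples for each of the 3 groups, so that n counts pools.

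In glycolysis, hexokinase traps glucose inside the cell, phosphofructokinase makes the committed step, phosphoglycerate kinase earns ATP, and lactate dehydrogenase turns pyruvate into lactate so that the pathway can go on without oxygen. In hypoxia, the hypoxia-inducible factors (HIF) escape degradation and bind a short core motif near many of these genes. They also act on mitochondria: PDK1 keeps pyruvate out of the citric acid cycle, BNIP3 marks mitochondria for autophagy, and NDUFA4L2 lowers respiratory activity. The retina is known for strong glycolysis even when oxygen is at hand, most of all in photoreceptors.

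The samples had between 21022997 and 28993921 counts in RVO eyes, 18897218 to 23419497 in control laser-treated eyes and 12377572 to 15245869 in untreated eyes. Levels are given as counts per 1000000 (CPM) of the library total after TMM scaling, with the SD over 3 pools. The 10 rod markers summed to 47630 to 51706 CPM in RVO pools and 57715 to 70405 CPM in control pools, and to 89235 to 91419 CPM in untreated ones, so that all samples carried the RNA of retina. Lens markers stood out in RVO replicate 2 at 6297 CPM and in Control replicate 1 at 3262 CPM, against 194 to 530 CPM in the other laser-treated samples, so the members, ratios and lists between these groups are also given without both samples.

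The HIF core motif was looked for in the promoters, because it is the sequence that HIF is known to bind at several of these genes. RefSeq promoters on build GRCm38.p6 were found for 9 members with 13 start sites. Ndufa4l2 had no promoter entry, so the motif search does not cover it. The motif was searched as ACGTG and as GCGTG on both strands in the 250 bases before each start, where CACGTG counts as ACGTG on both strands. At least 1 of these motifs was found at 11 of the 13 start sites (84.6%), and in 38.6% of 32851 promoter windows of the same length over all genes. ACGTG was in 16.6% and GCGTG in 28.2% of all windows, where windows with both motifs are in each share. A match is a description of the letters and not a proof of binding. HIF is known to bind several of these genes, and the windows over all genes were not matched for base content. The shares are thus no test of enrichment. The following stretches run 5′ to 3′ on the strand of the gene, from 10 bases before the first match to 10 bases after the last one, and capitals mark ACGTG or GCGTG on either strand. Each stretch holds all matches of its start site, and some start sites with a match are not shown.
Pgk1, chrX:106186940-106186983, plus strand: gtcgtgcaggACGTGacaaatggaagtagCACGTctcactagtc
Ldha, first start site, chr7:46845649-46845784, plus strand: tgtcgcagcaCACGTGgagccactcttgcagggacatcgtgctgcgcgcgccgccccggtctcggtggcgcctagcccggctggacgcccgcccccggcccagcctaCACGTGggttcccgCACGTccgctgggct
Bnip3, chr7:138909527-138909633, minus strand: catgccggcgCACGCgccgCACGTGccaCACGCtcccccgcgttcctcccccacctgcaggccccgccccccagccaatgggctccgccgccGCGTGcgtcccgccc
Pdk1, chr2:71873136-71873160, plus strand: gcctacatggGCGTGtctttaacca
Hk2, chr6:82774492-82774690, minus strand: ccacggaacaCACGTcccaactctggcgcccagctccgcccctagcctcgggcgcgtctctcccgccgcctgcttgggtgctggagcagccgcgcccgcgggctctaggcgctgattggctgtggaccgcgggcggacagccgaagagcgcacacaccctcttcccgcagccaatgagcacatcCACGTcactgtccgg
Pfkl, chr10:78009892-78009916, minus strand: ttgtagactgGCGTGcgctccgcct
Pfkp, chr13:6648780-6648917, minus strand: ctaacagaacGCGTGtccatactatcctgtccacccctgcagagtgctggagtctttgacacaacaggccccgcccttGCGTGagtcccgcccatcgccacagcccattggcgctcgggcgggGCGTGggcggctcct
Pfkfb3, second start site, chr2:11502128-11502222, minus strand: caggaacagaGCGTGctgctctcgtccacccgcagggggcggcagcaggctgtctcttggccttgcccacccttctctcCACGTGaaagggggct
The first start site of Ldha and that of Bnip3 had the most matches, with 5 each. Those at the first start site of Ldha were all ACGTG, and the most distant began 145 bases before the start, while its second start site, not shown, had a single GCGTG. Those of Bnip3 were of both kinds, and ACGTG began 108 bases before the start. Pfkl and Pdk1 had a single GCGTG at the start sites shown, and Pfkp had 3 copies of GCGTG and no ACGTG. The first start site of Hk1 and the second of Pdk1 had no match in these 250 bases. The second start site of Hk1, not shown, had 3 matches of GCGTG. That of Pfkfb3 listed first, not shown either, had a single ACGTG. For the first start site of Ldha and the second of Pdk1, the bases that follow were not found near the start of any annotated transcript of the gene.

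**Figure D1:**
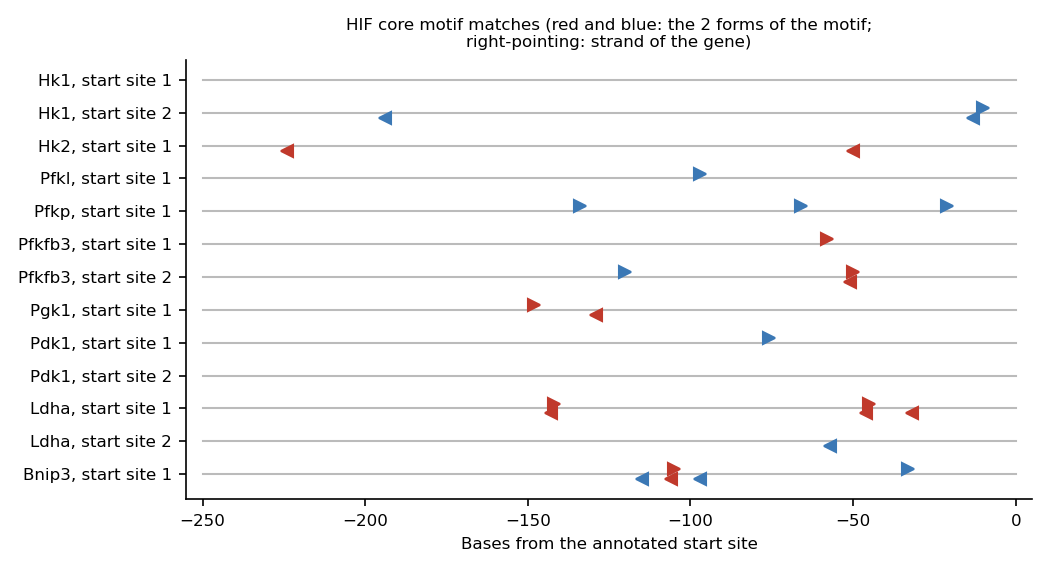
Positions of ACGTG and GCGTG on either strand in the 250 bases before each RefSeq start site of 9 members, with the distance from the start in bases on the horizontal axis and 1 line per start site. Of the 13 start sites, 11 hold a match, with 5 matches each at Ldha site 1 and at Bnip3.

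Between RVO and control laser-treated eyes, all 10 genes had higher mean levels in RVO, and the median log2 fold change was 0.46, against 0.019 over the 16874 genes tested. Ndufa4l2 alone rose at an adjusted p under 0.01 (edgeR's quasi-likelihood test with Benjamini-Hochberg adjustment over all genes tested), the threshold of the study. By that rule 2.7% of all genes were higher and 0.634% were lower, and no member was lower. At an adjusted p under 0.05, 7 of the 10 members were higher and none was lower, while 17.5% of all genes were higher and 17.1% were lower. The RVO pools and the control pools did not overlap for 8 members, all but Hk2 and Pdk1, and this held for 52.7% of all genes tested. With DESeq2 in place of edgeR, 7 members were higher at 0.01, and so were 11% of all 17050 genes tested there, with 12.7% lower. The members were chosen with results of these samples known, so their shared direction is not independent evidence. Fewer cells of a type and less RNA per cell cannot be told apart in these bulk samples.

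**Figure D2:**
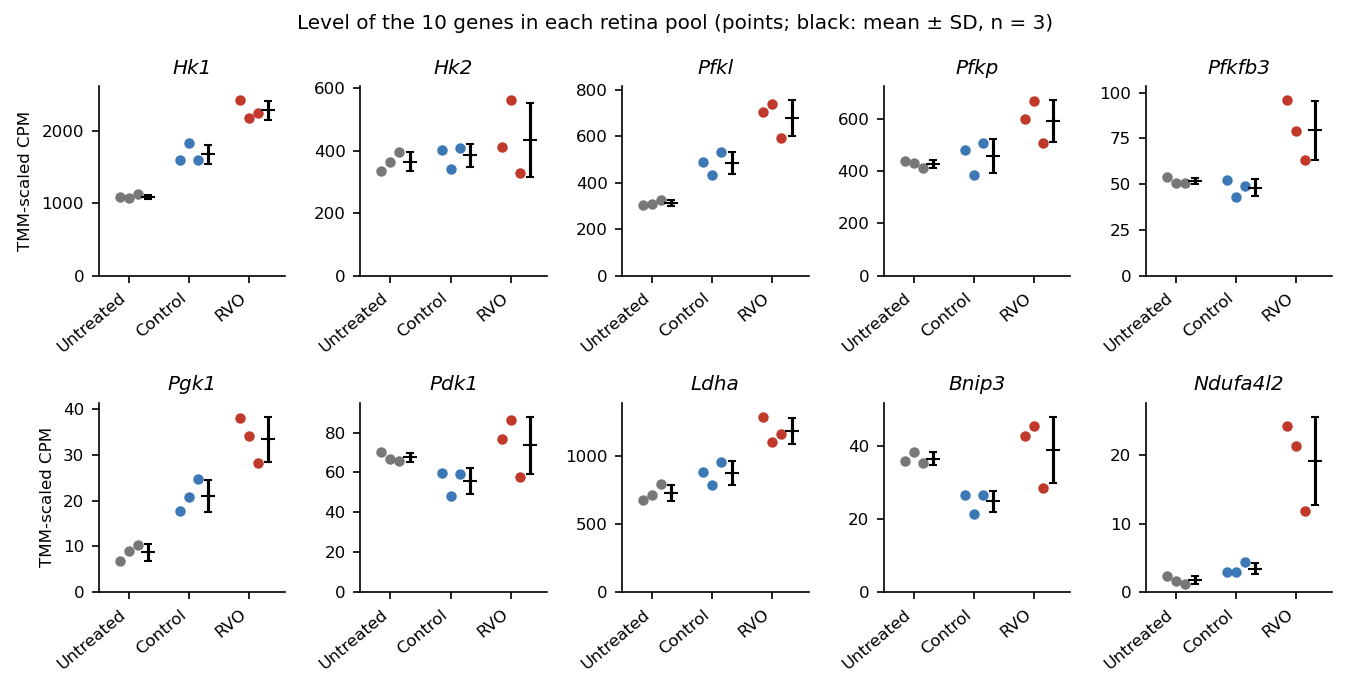
Level of each of the 10 genes in CPM (vertical axis, linear and starting at 0) in the 3 pools of RVO, control laser-treated and untreated eyes, with coloured points for pools and black bars for the mean ± SD. Ndufa4l2 lies between 11.9 and 24.3 CPM in RVO pools and at 4.35 CPM or less in all others, whereas the pools of Hk2 overlap in all 3 groups.

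Hk1 is the hexokinase of most tissues including neurons, and Hk2 is the hexokinase of muscle, tumours and photoreceptors. Hk1 (chr10:62268855-62379908, minus strand) had 2435, 2185 and 2251 CPM in RVO replicates 1 to 3, against 1601, 1835 and 1606 CPM in control and 1084, 1070 and 1126 CPM in untreated eyes. The 3 groups did not overlap and lay in the order RVO, control, untreated. RVO eyes had 1.36 times the Hk1 level of control eyes, with a log2 fold change of 0.44 ± 0.085 (SE) and an adjusted p of 0.0130 in edgeR, past 0.05 but not 0.01. Against untreated eyes it rose 2.08-fold in RVO (edgeR, adjusted p = 1.6e-05) and 1.52-fold in control eyes (edgeR, adjusted p = 1e-05). Hk2 (chr6:82725025-82774454, minus strand) had 410, 562 and 328 CPM in RVO, 403, 343 and 410 CPM in control and 336, 363 and 396 CPM in untreated eyes. RVO replicate 2 was the highest and RVO replicate 3 the lowest of all 9 samples, so that the groups overlapped. No comparison of Hk2 passed the test, with adjusted p-values in edgeR of 0.494 for RVO against control, 0.251 for RVO against untreated and 0.522 for control against untreated eyes.

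Phosphofructokinase is a tetramer of 3 possible subunits, of which Pfkl encodes the liver type and Pfkp the platelet type. Pfkl (chr10:77986947-78010083, minus strand) had 705, 739 and 592 CPM in RVO, 488, 435 and 532 CPM in control and 304, 308 and 327 CPM in untreated eyes. The order of the groups was that of Hk1, again without overlap. RVO eyes had 1.40 times the Pfkl level of control eyes (log2 0.48 ± 0.11 SE, adjusted p = 0.0157 in edgeR). It rose 2.15-fold from untreated to RVO eyes (edgeR, adjusted p = 3.5e-05) and 1.53-fold from untreated to control eyes (edgeR, adjusted p = 8.1e-06). Pfkp (chr13:6579768-6648777, minus strand) had 597, 669 and 509 CPM in RVO, 479, 386 and 508 CPM in control and 439, 432 and 411 CPM in untreated eyes. RVO replicate 3 and Control replicate 3 were almost level, and the control and untreated pools overlapped. Pfkp had an adjusted p of 0.0593 between RVO and control and of 0.413 between control and untreated eyes, and rose 1.37-fold from untreated to RVO eyes (edgeR, adjusted p = 0.00354).

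Pfkfb3 encodes the enzyme that makes fructose 2,6-bisphosphate, the strongest activator of phosphofructokinase. Pfkfb3 (chr2:11471433-11554077, minus strand) had 96.0, 78.8 and 63.3 CPM in RVO, 52.1, 42.9 and 48.9 CPM in control and 53.7, 50.4 and 50.8 CPM in untreated eyes. All RVO pools were above all others, and control and untreated pools overlapped. RVO eyes had 1.65 times the Pfkfb3 level of control eyes (log2 0.72 ± 0.15 SE, adjusted p = 0.0144 in edgeR) and it rose 1.53-fold in RVO against untreated eyes (edgeR, adjusted p = 0.00513). Its log2 difference of control and untreated eyes was -0.12 (edgeR, adjusted p = 0.154). The calls of Pfkp and Pfkfb3 between RVO and untreated eyes were lost at 0.01 when any 1 of the untreated replicates 1, 2 or 3 was left out, with adjusted p-values between 0.0152 and 0.0257 in edgeR.

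Pgk1 encodes phosphoglycerate kinase, the first ATP-yielding enzyme of glycolysis. Pgk1 (chrX:106187100-106203699, plus strand) had 38.1, 34.0 and 28.2 CPM in RVO, 17.7, 20.8 and 24.7 CPM in control and 6.71, 8.95 and 10.3 CPM in untreated eyes. The groups did not overlap, and the step from untreated to control was the larger one on the log2 scale. RVO eyes had 1.58 times the Pgk1 level of control eyes (log2 0.66 ± 0.15 SE, adjusted p = 0.0169 in edgeR). It rose 3.81-fold from untreated to RVO eyes (edgeR, adjusted p = 5.4e-05) and 2.38-fold from untreated to control eyes (edgeR, adjusted p = 1.5e-05). The level itself is uncertain, because 53.9% of the 50-base stretches of Pgk1 transcripts, the length of a read, also occur in transcripts of 5 other annotated genes such as Pgk1-rs7. Pgk1-rs7 itself had 0 to 5 counts per sample.

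Ldha encodes the subunit of lactate dehydrogenase that favours the making of lactate. Ldha (chr7:46841475-46855627, plus strand) had 1294, 1109 and 1165 CPM in RVO, 884, 786 and 958 CPM in control and 675, 719 and 796 CPM in untreated eyes. RVO pools were above all others, and control replicate 2 lay within the range of the untreated pools. RVO eyes had 1.36 times the Ldha level of control eyes (log2 0.44 ± 0.095 SE, adjusted p = 0.0155 in edgeR) and it rose 1.62-fold in RVO against untreated eyes (edgeR, adjusted p = 0.000272). Between control and untreated eyes it had a log2 difference of 0.24 and missed 0.01 (edgeR, adjusted p = 0.0163). It passed there without Control replicate 2 (edgeR, adjusted p = 0.00304) and without Untreated replicate 3 (edgeR, adjusted p = 0.00987). A share of 9.26% of its 50-base stretches occurs in other transcripts. The study also ran qPCR on these RNA samples, within a time course. There it listed Pgk1 and Pfkl among hypoxia-responsive genes without an increase, and Ldha among those that were down-regulated. Why the qPCR and the counts differ was not tested.

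Of the members that act on mitochondria, Pdk1 encodes a kinase that switches off pyruvate dehydrogenase. Pdk1 (chr2:71873224-71903858, plus strand) had 76.7, 86.2 and 57.8 CPM in RVO, 59.5, 48.1 and 59.4 CPM in control and 70.3, 66.5 and 65.8 CPM in untreated eyes. RVO replicate 3 lay within the control range, and all control pools were under all untreated pools. Its log2 difference of RVO and control eyes was 0.40 ± 0.15 (SE) and did not pass the test (edgeR, adjusted p = 0.0739), and neither did that of RVO and untreated eyes (edgeR, adjusted p = 0.479). Pdk1 fell by 0.30 on the log2 scale from untreated to control eyes (edgeR, adjusted p = 0.00428). This call was lost without Control replicate 2 (adjusted p = 0.0132), Untreated replicate 1 (0.0183) or Untreated replicate 2 (0.0156), and also in edgeR with library size only (log2 -0.12, adjusted p = 0.168) or with all 9 samples in 1 fit (adjusted p = 0.0696).

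Bnip3 encodes an outer membrane protein of mitochondria that recruits the autophagy machinery. Bnip3 (chr7:138890836-138909519, minus strand) had 42.7, 45.6 and 28.5 CPM in RVO, 26.5, 21.5 and 26.6 CPM in control and 36.0, 38.5 and 35.3 CPM in untreated eyes. RVO replicate 3 was the lowest RVO pool, above all control pools and under all untreated ones. RVO eyes had 1.56 times the Bnip3 level of control eyes (log2 0.65 ± 0.18 SE, adjusted p = 0.0287 in edgeR), and Bnip3 fell by 0.57 on the log2 scale from untreated to control eyes (edgeR, adjusted p = 0.000101). Between RVO and untreated eyes the log2 difference was 0.080 (edgeR, adjusted p = 0.679), and -0.023 without RVO replicate 2. For Bnip3, 47.2% of the 50-base stretches occur in transcripts of 6 other genes, among them Gm45507, which overlaps 504 of its 2265 exon bases on the opposite strand.

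Ndufa4l2 encodes a mitochondrial protein related to NDUFA4, a subunit of complex IV, and is known as a HIF target. Ndufa4l2 (chr10:127514967-127517154, plus strand) had 24.3, 21.4 and 11.9 CPM in RVO, 2.92, 3.00 and 4.35 CPM in control and 2.42, 1.68 and 1.19 CPM in untreated eyes, which rest on 268 to 752, 59 to 103 and 17 to 27 counts. All 3 groups were separate, and the lowest RVO pool was above the highest control pool. It rose 5.58-fold from control to RVO eyes (log2 2.48 ± 0.30 SE, adjusted p = 0.00717 in edgeR). It also rose 10.98-fold from untreated to RVO eyes (edgeR, adjusted p = 8.4e-05) and 1.96-fold from untreated to control eyes (edgeR, adjusted p = 0.00612). The call between RVO and control eyes held without RVO replicate 2 (edgeR, adjusted p = 0.000171) but, like nearly all calls over all genes, was lost when RVO replicate 1 or 3 or Control replicate 1, 2 or 3 was left out, with adjusted p-values from 0.0144 to 0.0505 and log2 differences from 2.26 to 2.72. The call between control and untreated eyes was lost without Control replicate 3, Untreated replicate 2 or Untreated replicate 3, with adjusted p-values from 0.0264 to 0.0425, and also with DESeq2 (adjusted p = 0.0113) and in 1 edgeR fit of all 9 samples (adjusted p = 0.0467). Ndufa4l2 shares 32 of 1095 exon bases with Shmt2 on the opposite strand, and Shmt2 had 120.6, 70.9 and 42.5 CPM in RVO, control and untreated eyes. If counting did not use strand, reads from these bases cannot be told apart. Without RVO replicate 2 and Control replicate 1, the samples with lens RNA, the log2 difference of Ndufa4l2 between RVO and control eyes was 2.27 (edgeR, adjusted p = 0.00107), and Pfkfb3 passed as well (log2 0.77, edgeR, adjusted p = 0.00745). Under that choice the log2 difference was 0.42 for Hk1, 0.40 for Pfkl, 0.28 for Pfkp, 0.52 for Pgk1, 0.30 for Pdk1, 0.47 for Ldha and 0.54 for Bnip3, and that of Hk2 turned to -0.052.

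**Figure D3:**
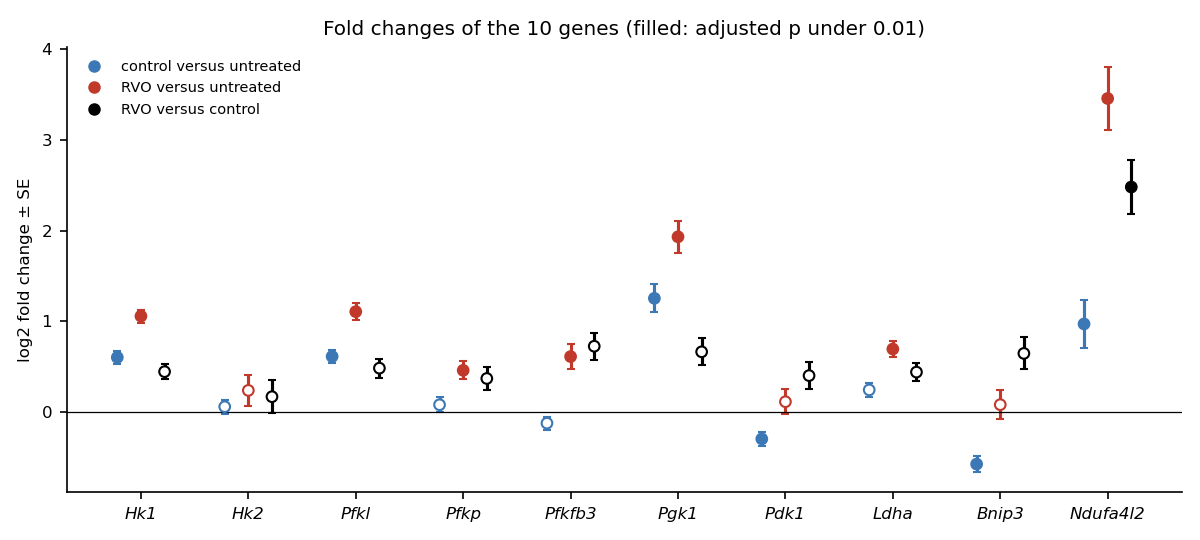
Log2 fold change of each of the 10 genes between RVO and control, RVO and untreated, and control and untreated eyes (vertical axis, bars for the SE), with filled points for an edgeR adjusted p under 0.01. Ndufa4l2 is the only filled point between RVO and control eyes (2.48), and Pdk1 and Bnip3 are filled on the negative side between control and untreated eyes.

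Both other comparisons share samples with the first one, so their values are set side by side and not counted as separate evidence. From untreated to RVO eyes, 7 of the 10 members rose (all but Hk2, Pdk1 and Bnip3) and none fell at an adjusted p under 0.01 in edgeR, with a median log2 fold change of 0.65. That share stood beside 27.4% of all genes rising and 24.6% falling, and the pools of 7 members did not overlap, against 73.3% of all genes. From untreated to control eyes, 4 members rose (Hk1, Pfkl, Pgk1 and Ndufa4l2) and 2 fell (Pdk1 and Bnip3), with a median of 0.16. Of all genes tested, 27.2% rose and 25.2% fell in that comparison, and 69.8% did not overlap, against 6 of the 10 members. For Hk1, Pfkl, Pgk1 and Ndufa4l2 all control pools lay between the untreated and the RVO pools. For Pfkp, Pfkfb3 and Ldha all RVO pools were above all others, while control and untreated pools overlapped. For Pdk1 and Bnip3 all control pools were under all untreated pools, and RVO and untreated pools overlapped.

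The RVO pools differed among themselves. RVO replicate 3 was the lowest RVO pool for 8 of the 10 members, and RVO replicate 2 was the lowest for Hk1 and Ldha. A list of 14 other HIF targets also had its lowest RVO sum in replicate 3, with 1461 CPM against 2106 and 2022 CPM in replicates 1 and 2. Without RVO replicate 3, the adjusted p between RVO and untreated eyes was 0.0391 for Hk2, 0.0389 for Pdk1 and 0.0421 for Bnip3 in edgeR, none of them under 0.01. Among control pools, replicate 2 was the lowest for 7 members and replicate 3 the highest for 7.

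Levels of different genes can be compared only per length, for which CPM was divided by the kilobases of annotated exons. On this scale Ldha was highest in all 3 groups, with 359 ± 28.7, 265 ± 26.1 and 221 ± 18.5 CPM per kb (SD, n = 3) in RVO, control and untreated eyes, followed by Hk1 with 268, 197 and 128 CPM per kb. In untreated eyes the order went on with Hk2 at 61.1, Pfkl at 46.9, Pfkp at 31.9, Bnip3 at 16.1, Pdk1 at 8.69, Pfkfb3 at 6.83, Pgk1 at 3.86 and Ndufa4l2 at 1.61 CPM per kb, with no overlap of pools between neighbours. In RVO eyes Pfkl stood above Hk2, with 102 and 72.6 CPM per kb and overlapping pools. Ndufa4l2 moved from the last place to the sixth, at 17.5 CPM per kb, where it overlapped with Bnip3 at 17.2. Neighbours from there down to Pgk1 at 14.9, Pfkfb3 at 10.5 and Pdk1 at 9.46 CPM per kb overlapped as well. Control eyes also had Pfkl above Hk2, at 72.6 and 64.5 CPM per kb with overlapping pools. Pgk1 stood above Pdk1 and Pfkfb3 in control as in RVO eyes, and Ndufa4l2 was last in control eyes at 3.13 CPM per kb. The places of Pgk1 and Bnip3 in these orders are uncertain, because 53.9% and 47.2% of their 50-base stretches also occur in transcripts of other genes.

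Ratios of a member to a related gene within a sample need no scaling between libraries. For 6 ratios and 3 comparisons, 18 two-sided exact permutation tests were run on log2 ratios, in which 3 against 3 pools cannot give a p under 0.1, and the adjusted p (Benjamini-Hochberg) is then 0.129. Thus no ratio could pass 0.05, and sizes and overlap are given. Ldhb encodes the subunit that favours the use of lactate. The count of Ldha per count of Ldhb was 25.03, 12.4 and 18.1 in RVO, 8.02, 7.59 and 8.28 in control and 4.72, 5.46 and 5.88 in untreated eyes. The groups did not overlap, and the log2 difference of RVO and control was 1.16 ± 0.30 (SE, n = 3 per group, exact p = 0.1). Ldhb itself was 109.9 CPM in control and 68.4 CPM in RVO eyes (log2 -0.69, edgeR, adjusted p = 0.0244). The ratio of Pdk1 to Pdk2, a kinase of the same family, was 1.51, 1.30 and 1.05 in RVO, 0.825, 0.713 and 0.871 in control and 0.899, 0.812 and 0.888 in untreated eyes. Here RVO pools were above all others, with a log2 difference of 0.67 ± 0.17 (SE, exact p = 0.1) to control and of 0.55 ± 0.16 (SE, exact p = 0.1) to untreated eyes. Control and untreated pools overlapped (log2 -0.11, exact p = 0.3).

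The ratio of Ndufa4l2 to Ndufa4 was 0.133, 0.105 and 0.0613 in RVO, 0.0142, 0.0141 and 0.0199 in control and 0.0131, 0.00911 and 0.00585 in untreated eyes. Ndufa4 thus kept the larger count in every sample, and the log2 difference of RVO and control was 2.57 ± 0.37 (SE, exact p = 0.1). Bnip3 had 0.541, 0.425 and 0.353 counts per count of its relative Bnip3l in RVO, 0.301, 0.256 and 0.285 in control and 0.359, 0.398 and 0.362 in untreated eyes. RVO was above control in all pools (log2 0.63 ± 0.19 SE, exact p = 0.1), and overlapped with untreated (log2 0.21, exact p = 0.4). The ratio of Hk2 to Hk1 lay between 0.146 and 0.257 in RVO, between 0.187 and 0.255 in control and between 0.310 and 0.352 in untreated eyes. That of Pfkp to Pfkl lay at 0.848 to 0.905, 0.888 to 0.981 and 1.26 to 1.44 in the same order. For both pairs, RVO and control overlapped (log2 -0.31, exact p = 0.4, and -0.11, exact p = 0.2) and all laser-treated pools were under all untreated ones. Without RVO replicate 2 and Control replicate 1, the log2 difference of RVO and control was 1.43 for Ldha to Ldhb, 0.67 for Pdk1 to Pdk2, 2.42 for Ndufa4l2 to Ndufa4, 0.69 for Bnip3 to Bnip3l, -0.48 for Hk2 to Hk1 and -0.11 for Pfkp to Pfkl.

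**Figure D4:**
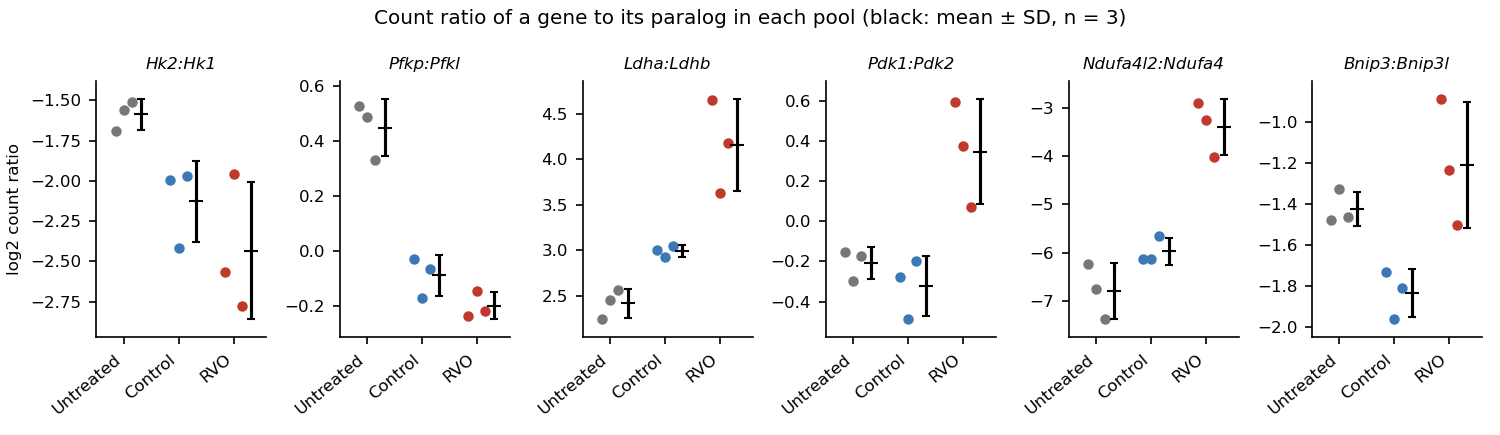
Log2 ratio of the counts of a member to a related gene within each sample (vertical axis) for 6 pairs, with points for the 3 pools of RVO, control laser-treated and untreated eyes and black bars for the mean ± SD. Ldha to Ldhb and Ndufa4l2 to Ndufa4 lie in the order RVO, control, untreated without overlap, and Pdk1 to Pdk2 is separate in RVO eyes.

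The other genes of the pathway were followed with lists that hold no member. Counts in these lists and in the cell type markers further below stand beside shares over all genes between RVO and control eyes. At 0.01, 2.7% of all genes were higher and 0.634% lower, and at 0.05, 17.5% were higher and 17.1% lower (edgeR). Of 22 other glycolytic enzymes tested between RVO and control eyes, 1 was higher and none was lower at an adjusted p under 0.01, and 5 were higher and 4 lower at 0.05 (edgeR), with a median log2 difference of 0.14. Hkdc1, a hexokinase domain protein, rose with 29.8 ± 4.55 CPM in control and 59.0 ± 8.16 CPM in RVO eyes (SD, n = 3, log2 0.98, edgeR, adjusted p = 0.00928), and had 10.4 ± 1.84 CPM in untreated eyes. At 0.05, Hk3, the hexokinase of white blood cells, was higher in RVO (log2 1.13, edgeR, adjusted p = 0.0133), as was Tpi1, triose phosphate isomerase (log2 0.42, edgeR, adjusted p = 0.0130). On the other side were Pfkm, the muscle type of phosphofructokinase (log2 -0.76, edgeR, adjusted p = 0.0125), Aldoc, the brain aldolase (log2 -0.74, edgeR, adjusted p = 0.0224), Ldhb and Pfkfb2 (log2 -0.54, edgeR, adjusted p = 0.0142). Pfkl and Pfkm, Pfkfb3 and Pfkfb2, and Ldha and Ldhb thus had log2 differences of opposite sign. Pfkfb1 and Pfkfb4 did not pass 0.05 between RVO and control eyes, and Pgk2 and Ldhc had too few counts to be tested. Against untreated eyes, 10 of these 22 enzymes rose and 3 fell in RVO, and 10 rose and 2 fell in control eyes, at an adjusted p under 0.01. Of all genes tested, 27.4% rose and 24.6% fell in RVO, and 27.2% rose and 25.2% fell in control eyes. Gapdh, a very abundant glycolytic mRNA in most tissues, was listed with only 13.1 to 23.8 CPM, and 25.1% of its 50-base stretches occur in transcripts of 223 other genes, so the levels of glycolytic genes with many copies, Pgk1 among them, are uncertain.

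Genes of mitochondrial steps were spread around the median of all genes between RVO and control eyes. Of 13 genes for the entry of pyruvate into mitochondria, none passed 0.01 in edgeR, and Pdk3 (log2 0.48, adjusted p = 0.0102) and Pdk4 (log2 0.96, adjusted p = 0.0497) were higher at 0.05, with a median over the list of -0.03. Pdk2 had a log2 difference of -0.27 (edgeR, adjusted p = 0.0711). In the citric acid cycle, 1 of 16 genes, Suclg2 of succinate-CoA ligase, rose with 6.67 ± 0.631 CPM in control and 13.5 ± 0.350 CPM in RVO eyes (edgeR, adjusted p = 0.00679). At 0.05, Sdhb of succinate dehydrogenase was higher as well (log2 0.22, edgeR, adjusted p = 0.0319) and Idh3a of isocitrate dehydrogenase was lower (log2 -0.22, edgeR, adjusted p = 0.0282), and the median of that list was 0.04.

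Of 13 other genes of mitophagy, none passed 0.01 between RVO and control eyes, and the median was 0.00. At 0.05, 2 were higher and 2 lower (edgeR), beside 17.5% and 17.1% of all genes. Higher was Sqstm1, which encodes an autophagy adaptor (log2 0.70, edgeR, adjusted p = 0.0108), and lower was Fundc1, a mitophagy receptor (log2 -0.33, edgeR, adjusted p = 0.0235). Tax1bp1 was higher (log2 0.28, adjusted p = 0.0323) and Optn lower (log2 -0.30, adjusted p = 0.0286), and both encode autophagy adaptors as well. Bnip3l, the relative of Bnip3, had a log2 difference of 0.01 (edgeR, adjusted p = 0.961). Among 18 genes of complex IV and of its subunits known to be exchanged in hypoxia, Cox4i2, the isoform of hypoxia and of lung, rose with 30.0 ± 2.16 CPM in control and 51.2 ± 5.19 CPM in RVO eyes (edgeR, adjusted p = 0.00758), and had 22.03 ± 2.18 CPM in untreated eyes. Cox6a2 (log2 2.07, adjusted p = 0.0110), on 7 to 13 counts per control pool, and Lonp1, the protease known to remove the exchanged Cox4i1 (log2 0.66, adjusted p = 0.0101), were higher at 0.05, and Cox6c was lower (log2 -0.32, adjusted p = 0.0198, all in edgeR). The median of that list was -0.01, and Ndufa4 had a log2 difference of -0.13 (edgeR, adjusted p = 0.141).

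Of 14 other HIF targets, 6 rose and none fell at 0.01 between RVO and control eyes, and 10 were higher at 0.05 (edgeR), with a median log2 difference of 0.80. The largest were Car9, carbonic anhydrase 9 (0.679 ± 0.0852 and 8.11 ± 2.49 CPM in control and RVO eyes, edgeR, adjusted p = 0.00455), Adm, adrenomedullin (3.37 ± 0.969 and 28.7 ± 7.99 CPM, edgeR, adjusted p = 0.00459), and Egln3, a HIF prolyl hydroxylase (7.65 ± 0.916 and 34.6 ± 13.4 CPM, edgeR, adjusted p = 0.00746). This list was drawn up with earlier results of these samples in view, so its direction is not independent evidence. The pattern of levels most like that of Pdk1 over all 9 samples was that of Kdm3a, a histone demethylase, at a root mean square difference of 0.0878 on the centred log2 scale, followed by Higd1a, a mitochondrial protein, at 0.0983 and Tgm3 at 0.104, where the median over 17112 genes was 0.417. For Bnip3 the nearest were Pdk1 at 0.135, Tgm3, with means under 1 CPM in all groups, at 0.142 and Kdm3a at 0.146 (median 0.493). For Ndufa4l2 they were Snord55 at 0.441 and 4933421A08Rik at 0.446, both under 1 CPM in all groups, and Neurog2 at 0.450 with 21.9, 4.44 and 2.50 CPM in RVO, control and untreated eyes (median 1.47). Without RVO replicate 2 and Control replicate 1, where 2129 of 16985 genes were higher and 2719 lower at 0.01 (edgeR), 7 of these HIF targets were higher and none was lower, with a median of 0.69. Of the 22 other glycolytic enzymes 2 were then higher and 4 lower (median 0.10), of the 13 genes of pyruvate entry 1 was higher and 2 lower (median -0.039), and of the 16 of the citric acid cycle 1 was higher (median 0.033). Of the 13 genes of mitophagy 2 were higher and 2 lower, with a median that turned to -0.067, and of the 18 of complex IV 3 were higher (median -0.087).

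**Figure D5:**
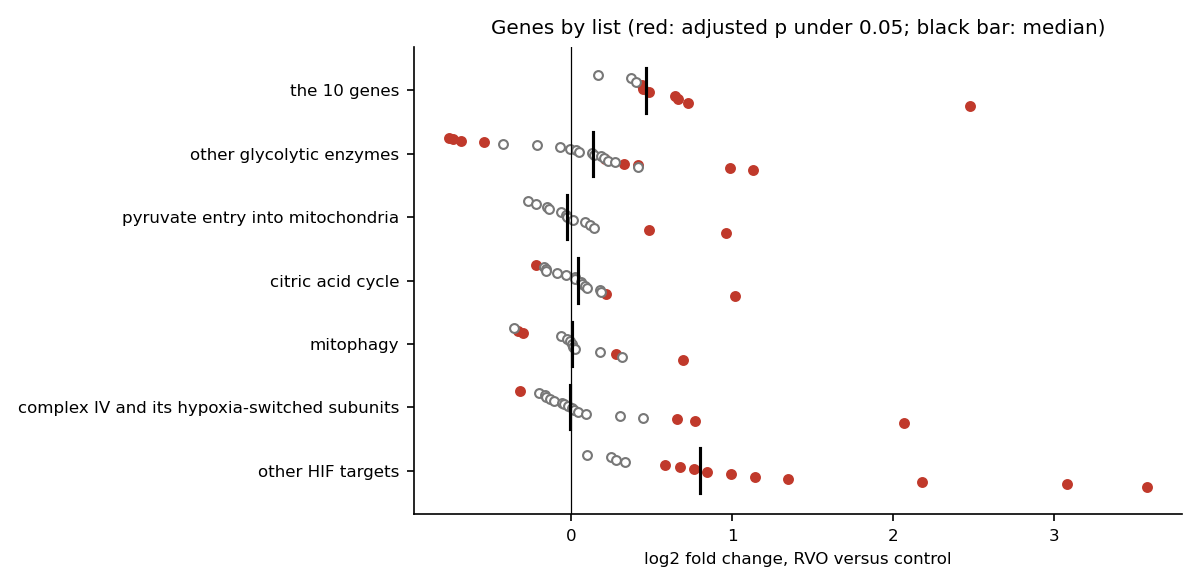
Log2 fold change between RVO and control eyes (horizontal axis) for the 10 members and 6 lists of related genes, with 1 point per gene tested, filled red where the edgeR adjusted p is under 0.05, and a black bar at the median of each list. The median is 0.46 for the members and 0.80 for the other HIF targets, and lies between -0.03 and 0.14 for the 5 lists of metabolic and mitochondrial genes.

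Cell type markers moved along with these genes. Between control and RVO eyes, rod markers were lower (6 of 10 at 0.05, median log2 -0.40), as were cone markers (6 of 8, summed 1016 to 1306 CPM in control and 535 to 818 CPM in RVO) and Mueller cell markers (6 of 8, 3341 to 4005 and 1954 to 2953 CPM). Neutrophil markers went the other way (6 of 6 tested, 30.4 to 52.2 and 78.8 to 151 CPM, with 4 of 8 at 0 counts in untreated eyes), as did those of monocytes and macrophages (5 of 9, 47.3 to 64.2 and 109 to 132 CPM) and of red blood cells (3 of 5, 28.9 to 31.4 and 50.2 to 199 CPM). Of the 11 markers of pericytes and smooth muscle, cells in which Ndufa4l2 is known to be expressed, 2 were higher and 5 lower. Their sum was 963 to 1014 CPM in RVO and 1071 to 1220 CPM in control eyes. Vtn alone made up most of that sum, with means of 869 and 1013 CPM, so the sum says little of the other markers. Endothelial markers summed to 144 to 264 CPM in RVO and 316 to 351 CPM in control eyes, with 5 of 8 lower. Microglia markers summed to 31.3 to 52.1 and 49.9 to 58.4 CPM, with 4 of 6 lower, and of 7 pigment epithelium markers 1 was higher. Without RVO replicate 2 and Control replicate 1, the median log2 difference was -0.43 for rod, -1.15 for cone, -1.07 for Mueller cell, 2.40 for neutrophil, 1.05 for monocyte and macrophage, 2.15 for red blood cell, -0.98 for pericyte and smooth muscle, -1.09 for endothelial, -1.66 for microglia and 0.019 for pigment epithelium markers. The part of these cells in the levels of the 10 genes was not tested.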

How the data were processed

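The authors mapped single reads of 50 bases with STAR (2.5.2b in the submitters' processing notes) to the mouse genome, build GRCm38, with a Gencode annotation, counted reads per gene with featureCounts (Subread 1.5.1), and deposited raw counts for all 9 samples. The library kit marks strand, but whether counting used strand and how reads that match several genes were handled are not given in the sources used here. The 92 spike-in controls among the 48679 names had no count (0 in all) and were left out, and the number of sample columns not used was 0. Samples were grouped by their labels. Replicates of a group differed by more than sampling noise. The labels give separate pools, so p-values measure the spread between pools. RVO and control retinas were fellow eyes, and the main test between them takes the groups as independent.

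Fits were made with edgeR 4.0.16 in R 4.3.3. Each pair of groups had its own fit: filterByExpr removed genes of low counts, TMM scaled the libraries (for CPM, factors over all 9 samples were 1.04 to 1.07 for RVO, 1.01 to 1.04 for control and 0.903 to 0.935 for untreated samples), the quasi-likelihood test was applied and p-values were adjusted by Benjamini-Hochberg over all genes tested. The fits were tested on simulated data whose spread between replicates was smaller than in both comparisons with RVO pools. That test thus does not show how the fits perform on RVO pools. Ratios used counts plus 0.5 and exact permutation tests in SciPy 1.17.1. Positions and exon lengths were taken from GENCODE vM21 (same build) and promoters from RefSeq. Shared 50-base stretches were counted over annotated transcripts. Alternatives were DESeq2 1.42.0 (as test and as size factors), library size only, other filters, 1 fit over all 9 samples, a replicate block, a threshold of 0.05 and each sample left out.

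All 10 members are named. Of the other lists, named genes are relatives of members and, per list, up to 3 with the largest rise and up to 3 with the largest fall at an adjusted p under 0.05 between RVO and control, and for Pdk1, Bnip3 and Ndufa4l2 the 3 genes of nearest pattern. The result of 1 gene is left out here. Gapdh and Shmt2 were named after their values were seen. The members and lists were chosen with earlier results of these data known.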

Additional observations from a re-analysis of the deposited data

How the results depend on the processing

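The number of members higher in RVO than in control eyes at an adjusted p under 0.01 was 1, and depended on the fit. It was 6 without a filter on low counts, 7 in a fit of all 9 samples, 7 with DESeq2's Wald test and 7 at a threshold of 0.05. Calls over all genes rose along with it, from 456 higher and 107 lower to 1569 and 1740 without a filter, 1832 and 2021 in the fit of all 9 samples and 1877 and 2161 with DESeq2. It was 2 without RVO replicate 2 and Control replicate 1, a choice made after seeing the data. With 1 sample left out it ranged from 0 to 6, being 6 without RVO replicate 2 and 0 without any other sample. Over all genes, 2942 were higher without RVO replicate 2, and 0 to 29 were without any 1 of the others. In the fits with 0 members, 7 to 9 members had an unadjusted p under 0.05 in edgeR. So did 6100 to 6916 of the 17149 to 17270 genes tested there. The number of members that fell from untreated to control eyes was 2, became 1 with library size only and 1 in the fit of all 9 samples, and ranged from 1 to 2 with 1 sample left out. The other counts of members kept within 1.5 times, with 5 to 7 rising from untreated to RVO and 3 to 5 rising from untreated to control eyes with 1 sample left out. The directions that turned were those of small differences: Hk2 between RVO and control eyes ranged from -0.079 to 0.32 with 1 sample left out, the lowest without RVO replicate 2, and was -0.052 without RVO replicate 2 and Control replicate 1. Bnip3 between RVO and untreated eyes ranged from -0.023 (without RVO replicate 2) to 0.27, Hk2 between control and untreated eyes from -0.014 (without Untreated replicate 1) to 0.13, and Pfkfb3 between control and untreated eyes had 0.050 with library size only. The cause of these changes was not tested. Library size only gave a median log2 difference over all genes tested of 0.22 between RVO and untreated and 0.19 between control and untreated eyes. Single calls lost from untreated to control eyes, those of Pdk1 and Ndufa4l2, are given with these genes. All log2 ratios kept their direction in all alternatives run.

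RVO and control retinas were fellow eyes, but the sources used here do not say that pools of the same number hold the same mice. Deviations of same-numbered RVO and control pools correlated at -0.13, -0.14 and 0.08, so the numbers were not taken as pairs. Such correlations over 3 pools per group cannot show that pairing is absent. With the replicate block, 0 members passed 0.01 between RVO and control eyes, as did 0 of all genes, and Ndufa4l2 had an adjusted p of 0.0314 in edgeR. An unadjusted p under 0.05 was reached there by 7 members and by 7227 of all 16874 genes tested (edgeR). The smaller totals of untreated samples limit the low genes, such as Ndufa4l2 with 17 to 27 counts there. Levels of Pgk1 and Bnip3 are uncertain because how shared reads were counted is not stated.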
